A study of Homo sapiens with 12 samples.

Results

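The 7 genes described here encode monocarboxylate transporters, which carry lactate, pyruvate, ketone bodies and related acids across membranes, and the membrane chaperones that bring some of them to the cell surface. They were chosen by name, SLC16A1, SLC16A3, SLC16A5, SLC16A6, SLC16A7, BSG and EMB, and make up 7 of the 60664 genes in the count table. Messenger RNA was measured in MDA-MB-231, an established human line from a triple-negative breast cancer, labelled wild type in all samples. The cells were grown in high-glucose medium with serum at pH 7.4 and then given fresh medium set to pH 7.4, pH 6.9 or pH 6.4, in which they stayed for 24 h. Each medium has 4 libraries, numbered as repeats 1 to 4. All 3 groups are the same line, and pH 7.4 is the control. The sample labels give pH 6.9 for the intermediate medium where the protocol gives pH 6.7, and the name pH 6.9 is kept here. Nothing in the labels says that repeats were separate cultures, so p-values measure only the spread between these samples, which may be technical. The 3 comparisons share groups and are not independent of each other.

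The products of SLC16A1, SLC16A3 and SLC16A7 move an acid anion together with a proton, so the direction of their transport follows both the substrate gradient and the pH difference across the membrane. SLC16A3 encodes MCT4, the carrier known for lactate export from glycolytic cells. SLC16A1 encodes MCT1, found in most tissues and able to take lactate in or out, and SLC16A7 encodes MCT2, a high-affinity carrier. Basigin, the product of BSG and also known as CD147, is needed for MCT1 and MCT4 to reach the plasma membrane, and embigin, the product of EMB, is the partner best known for MCT2. SLC16A5 and SLC16A6 encode less studied members of the family, of which the first is known to carry drugs such as bumetanide.

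Total counts ran from 21060767 to 50643233 per library. The library of pH 7.4 repeat 1 held 17841 genes with at least 1 count and that of pH 6.9 repeat 2 held 21628, while the other 10 held 23113 to 27384. The 5 markers listed for this mesenchymal-like line (VIM, CD44, AXL, CAV1 and FOSL1) were abundant, with a summed level of 4650 to 5021 counts scaled to a common library total (CPM) at pH 7.4, 4998 to 5419 at pH 6.9 and 5660 to 6413 at pH 6.4. Among these markers, 4 rose and 1 fell at pH 6.4 against pH 7.4 (adjusted p under 0.05 by edgeR). Of all tested genes, 15.6% rose and 14.7% fell in that comparison. ESR1 and PGR, the estrogen and progesterone receptors, were at or near 0, but GATA3 had a mean of 15.5 CPM and ERBB2 one of 87.6 CPM at pH 7.4. Of the luminal markers, KRT19 stood at a mean of 278 CPM and EPCAM at 22.0 CPM at pH 7.4, and the summed luminal list ranged from 251 to 350 CPM over all libraries. The blood markers PTPRC and CD68 summed to at most 0.977 CPM and the endothelial markers PECAM1 and VWF to 4.98 to 13.2 CPM. In bulk RNA, fewer cells of a kind and less RNA per cell cannot be told apart.

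Without the repeat number in the fit, none of the 6 genes with enough counts to be tested passed the test between any 2 media. SLC16A6 was too low to be tested. With the repeat number as a block, SLC16A3 was called lower at pH 6.4 against either other medium (adjusted p = 0.03443 against pH 7.4 and 0.007665 against pH 6.9 by edgeR). By edgeR's quasi-likelihood test, with an adjusted p under 0.05 over 17544 genes, 0 of the 6 genes were called without the block for pH 6.4 against pH 7.4, where 30.3% of all tested genes were called. The counts were also 0 of 6 for pH 6.9 against pH 7.4, with 0.724% of all genes called, and 0 of 6 for pH 6.4 against pH 6.9, with 17% called. An unadjusted p under 0.05, for which the share of all tested genes is not given here, was also read. By edgeR it was reached by 0, 0 and 1 of the 6 genes in these comparisons, the 1 being SLC16A3. DESeq2 called 0 in each and had 0, 1 and 1 genes under 0.05 unadjusted, namely SLC16A1 for pH 6.9 against pH 7.4, where it had no adjusted p, and SLC16A3 for pH 6.4 against pH 6.9. The library values of all 7 genes overlapped between the media in every comparison, and the share of all tested genes that did so is not given here. BSG and SLC16A3 were the abundant members, SLC16A5, SLC16A7 and EMB were low, and SLC16A1 and SLC16A6 were close to the limit of detection.

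Levels between genes were compared per kilobase of exon, as CPM per kb over all 12 libraries. BSG was highest, with a mean of 166 CPM per kb (147 to 189), above 99.2% of the tested genes. SLC16A3 followed with 46.0 CPM per kb (31.6 to 59.1), above 95.1% of tested genes. SLC16A5 had 6.01 CPM per kb (4.55 to 6.95), near the middle of the tested genes. Next came SLC16A7 with 1.42 CPM per kb (0.690 to 1.92) and EMB with 1.22 (0.821 to 1.81), whose ranges overlapped. SLC16A1 had 0.0905 CPM per kb (0 to 0.180), above only 4.38% of tested genes, and SLC16A6 had 0.0388 (0 to 0.137), and these ranges overlapped as well. All other neighbours in this order were separated in every library.

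**Figure D1:**
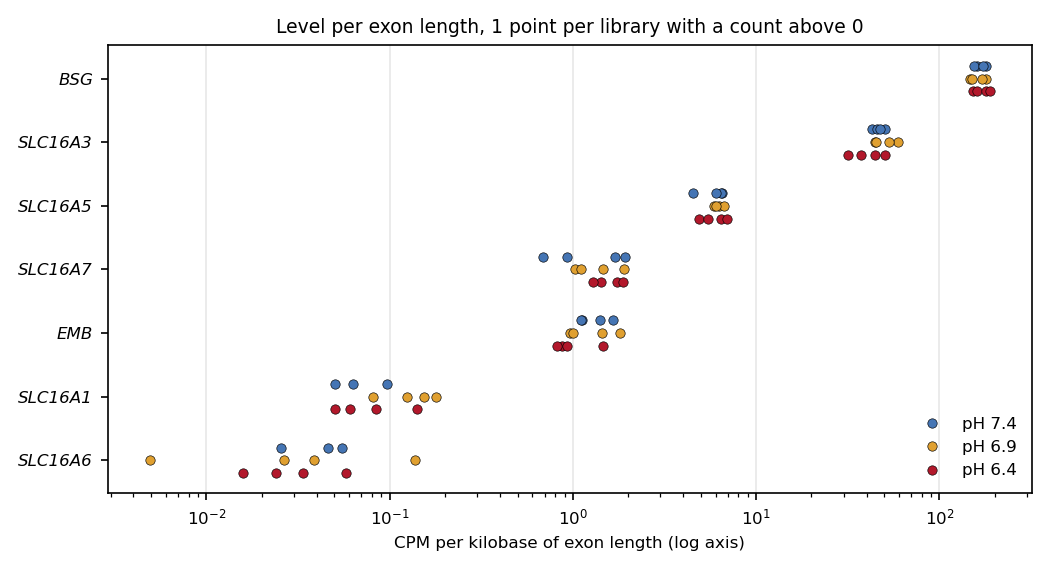
Level of each of the 7 genes in CPM per kilobase of exon length on a log axis, with 1 point per library, coloured by medium. The 2 counts of 0 (SLC16A1 and SLC16A6 in pH 7.4 repeat 1) are not drawn. BSG and SLC16A3 lie above all other genes of the set in all libraries, and SLC16A1 and SLC16A6 lie below them.

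Among the 5 transporters, SLC16A3 made up 86.6% ± 1.66 (SD, n = 4) of the summed level per kb at pH 7.4, 86.5% ± 0.965 at pH 6.9 and 84.1% ± 1.45 at pH 6.4. SLC16A5 took 10.9%, 10.8% and 12.4% in the same order, and SLC16A7 took 2.38%, 2.35% and 3.28%. SLC16A1, whose product is the other main lactate carrier of tumour cells, never exceeded 0.350%. In the 11 libraries with any SLC16A1 count, SLC16A3 was 247 to 904 times as high per kb (median 525). BSG supplied 99.2% of the summed level of both chaperones at pH 7.4 and at pH 6.9, and 99.4% at pH 6.4.

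SLC16A3 lies on the plus strand of chromosome 17 (GRCh38, chr17:82228397-82261129, GENCODE 29), and BSG on the plus strand of chromosome 19 (chr19:571277-583493). Both are the members whose levels carry the results. Their promoters are therefore shown where the RefSeq table holds a start with ACGTG, a form of the core of the hypoxia response element. Other forms of the core were not searched. ACGTG was searched on both strands, together with the E-box CACGTG, which contains it. RefSeq windows (GRCh38.p14) from 250 bases before to 50 bases after a start were matched for 3 of the 7 genes, 5 for SLC16A3 and 2 each for BSG and SLC16A7. ACGTG occurred in 1 of the 5 SLC16A3 windows and 1 of the 2 BSG windows, and in neither SLC16A7 window. The 250 bases before each of those 2 starts are printed 5′ to 3′ on the plus strand, with matches in capitals.
SLC16A3 chr17:82228792-82229041: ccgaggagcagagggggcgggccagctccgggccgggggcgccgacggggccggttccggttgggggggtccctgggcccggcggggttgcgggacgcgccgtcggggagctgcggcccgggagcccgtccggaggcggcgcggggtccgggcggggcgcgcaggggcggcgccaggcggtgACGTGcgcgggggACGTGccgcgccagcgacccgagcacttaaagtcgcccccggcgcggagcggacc
BSG chr19:572346-572595: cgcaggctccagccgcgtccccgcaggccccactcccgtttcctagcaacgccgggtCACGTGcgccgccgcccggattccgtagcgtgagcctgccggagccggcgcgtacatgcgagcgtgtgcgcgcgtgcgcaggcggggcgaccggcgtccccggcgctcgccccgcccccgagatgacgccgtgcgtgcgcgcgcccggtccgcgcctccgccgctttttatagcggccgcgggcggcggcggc
The SLC16A3 stretch holds ACGTG 2 times, and the BSG stretch holds 1 CACGTG, which reads as ACGTG on both strands. Of 35116 stretches of the same 250 bases before a start in the table, 18.5% hold ACGTG and 6.34% hold CACGTG. Of the whole windows of 300 bases, 21.4% hold ACGTG. Over the whole windows the printed SLC16A3 and BSG starts held 51 and 54 CG dinucleotides, against a median of 14. A match is a run of letters and not a measured binding site.

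SLC16A3, the lactate exporter, was counted at 384, 412, 455 and 427 CPM in pH 7.4 repeats 1 to 4. The pH 6.9 libraries had 399, 404, 531 and 479 CPM, and the pH 6.4 libraries 334, 284, 455 and 398 CPM. The means were 419.3 ± 29.8, 453.3 ± 63.7 and 367.7 ± 74.3 CPM (SD, n = 4 each). Repeats 1 and 2 at pH 6.4 were the lowest of the 12 libraries, while repeat 3 at pH 6.4 was level with the highest pH 7.4 library. The log2 fold change at pH 6.4 against pH 7.4 was -0.19 (95% interval -0.47 to 0.09, adjusted p = 0.3067 by edgeR). Against pH 6.9 it was -0.30 (-0.58 to -0.02, unadjusted p = 0.03825, adjusted p = 0.1326 by edgeR), and pH 6.9 against pH 7.4 gave 0.11 (-0.17 to 0.40, adjusted p = 0.8274).

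Compared within the same repeat number, SLC16A3 had the lower value at pH 6.4 in 4 of 4 repeats against either medium. The log2 differences were -0.20, -0.53, -0.00076 and -0.10 against pH 7.4 and -0.26, -0.51, -0.22 and -0.27 against pH 6.9, in the order of repeats 1 to 4. Deviations of same-numbered libraries from their group means correlated in these comparisons, but not always best with their own number. Against pH 7.4, repeat 1 correlated at 0.113 with its own number and at 0.214 with another. Once the fit held a term for the repeat number (a block), SLC16A3 was called lower at pH 6.4. The blocked log2 fold change was -0.21 against pH 7.4 (95% interval -0.36 to -0.05, adjusted p = 0.03443 by edgeR), a fall of 13.5%. Against pH 6.9 it was -0.31 (-0.47 to -0.15, adjusted p = 0.007665), a fall of 19.3%. SLC16A3 was the only member called with the block, which also raised the share of all tested genes called to 41.6% and 31.1% in these comparisons. For pH 6.9 against pH 7.4 the block called 0 members and 5.4% of all genes.

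Whether SLC16A3 was called depended on which libraries were used. In repeats 1 and 2 alone it was called lower at pH 6.4, by -0.36 against pH 7.4 (adjusted p = 0.02923, 22% of genes called) and by -0.38 against pH 6.9 (adjusted p = 0.04027, 10.6% called). Repeats 3 and 4 alone gave -0.039 (adjusted p = 0.8242) and -0.23 (adjusted p = 0.2816), neither of them called. In that setting 8.9% of all tested genes were called against pH 7.4. Against pH 6.9 it called 0 of 17171 genes, so the missing call there says nothing about SLC16A3. The pairs of repeats were not compared with each other. Without pH 6.4 repeat 3 the values were -0.30 (adjusted p = 0.06811) against pH 7.4 and -0.42 against pH 6.9, the latter called (adjusted p = 0.02023, with 27.6% of all genes called). Without pH 6.4 repeat 2 they were -0.082 (adjusted p = 0.6843) and -0.20 (adjusted p = 0.3767). Reads of SLC16A3 may be shared with CSNK1D on the opposite strand, which overlaps 482 of its exon bases, since no source used here states the strand setting of the counting.

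**Figure D2:**
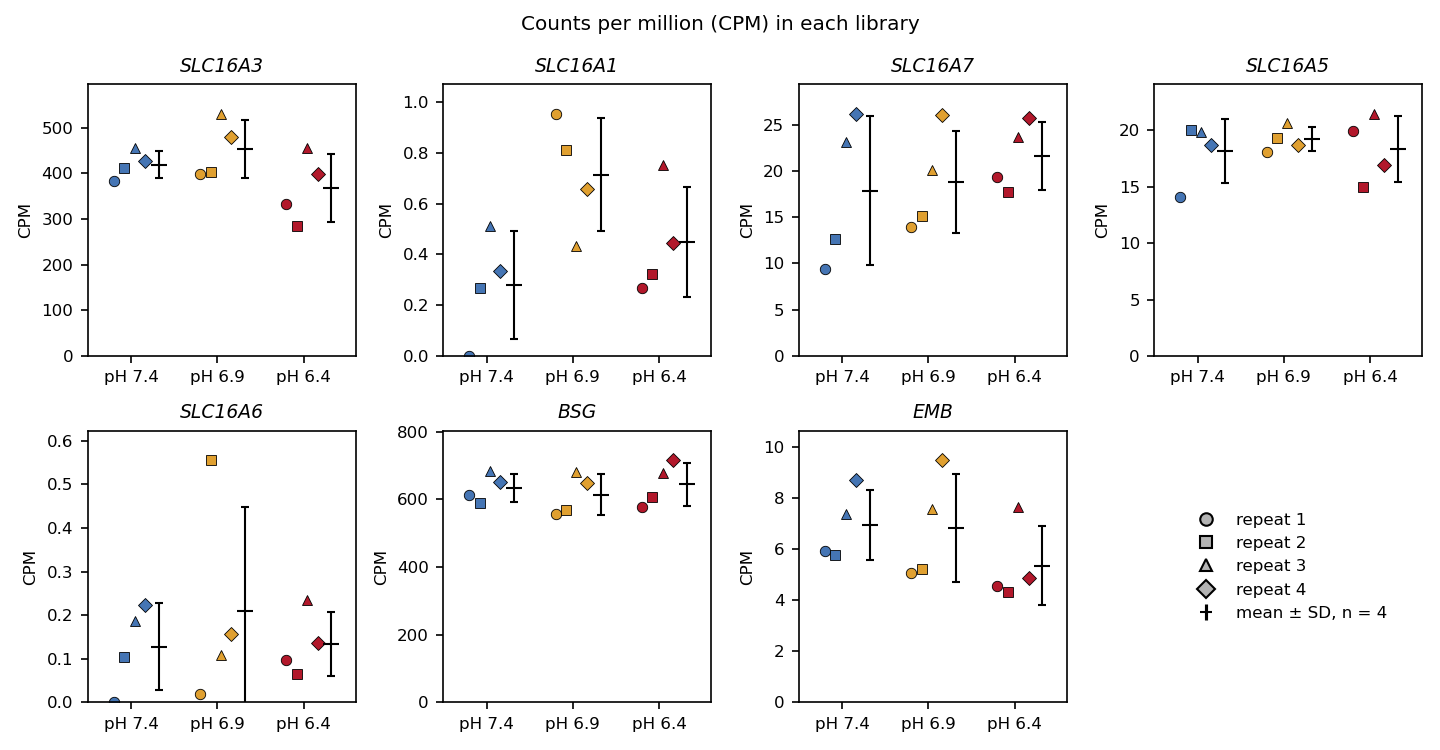
CPM of each gene in each of the 12 libraries, grouped by medium, with the symbol giving the repeat number and the bar the mean ± SD of 4 libraries; each vertical axis starts at 0 and has its own scale. The media overlap in every panel, and BSG and SLC16A7 sit higher in repeats 3 and 4 than in repeats 1 and 2.

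SLC16A1, on the minus strand of chromosome 1 (chr1:112911847-112957013), was barely detected. Its counts were 0, 13, 11 and 15 at pH 7.4, 48, 41, 12 and 25 at pH 6.9, and 11, 15, 32 and 13 at pH 6.4. The count of 0 in pH 7.4 repeat 1 allows up to 0.0871 CPM, taking 3 counts as the limit, and covers counting error only. The highest values, 0.956 and 0.813 CPM, came from pH 6.9 repeats 1 and 2, and repeat 3 at pH 6.9 fell within the pH 7.4 values. The fitted log2 fold change at pH 6.9 against pH 7.4 was 1.40 (95% interval -0.04 to 2.85, adjusted p = 0.4409 by edgeR). Without pH 7.4 repeat 1 it was 1.02 (adjusted p = 0.4041). At pH 6.4 against pH 7.4 the value was 0.72 (-0.74 to 2.18, adjusted p = 0.4675), and 0.32 to 1.10 when single libraries were left out. The pseudogene SLC16A1P1 had no count in any library, and the antisense gene SLC16A1-AS1, which overlaps 175 exon bases, had 0 to 8 counts.

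SLC16A7, the high-affinity carrier, on chromosome 12 (chr12:59596067-59789855, plus strand), had 9.44, 12.7, 23.2 and 26.2 CPM in pH 7.4 repeats 1 to 4. It had 14.0, 15.1, 20.1 and 26.1 CPM at pH 6.9, and 19.4, 17.7, 23.7 and 25.7 CPM at pH 6.4. Repeats 3 and 4 ran from 20.1 to 26.2 CPM over all media, and the spread between media lay in repeats 1 and 2. The log2 fold change at pH 6.4 against pH 7.4 was 0.28 (95% interval -0.33 to 0.88, adjusted p = 0.5018 by edgeR) over all repeats, 0.37 (adjusted p = 0.06684) with the block and 0.0076 (adjusted p = 0.9801) in repeats 3 and 4 alone. In repeats 1 and 2 alone it was 0.75 (adjusted p = 0.02289), the only setting of 22 in which it was called. That setting called 22% of all tested genes. Without pH 7.4 repeat 1, the library with the fewest detected genes, the value was 0.067 (adjusted p = 0.8701), and leaving out any other single library gave 0.14 to 0.53.

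SLC16A5, on chromosome 17 (chr17:75087727-75106162, plus strand), varied little. Its means were 18.2 ± 2.80, 19.2 ± 1.07 and 18.3 ± 2.93 CPM at pH 7.4, pH 6.9 and pH 6.4 (SD, n = 4). The lowest single value, 14.1 CPM, was pH 7.4 repeat 1 and the highest, 21.5 CPM, pH 6.4 repeat 3. The log2 fold change at pH 6.4 against pH 7.4 was 0.01, with a 95% interval equal to 0.824-fold to 1.24-fold (adjusted p = 0.9508 by edgeR). For pH 6.9 against pH 7.4 it was 0.08 (0.862-fold to 1.29-fold, adjusted p = 0.8935).

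SLC16A6, on the minus strand of chromosome 17 (chr17:68267026-68291267), was too low for the filter and was not tested in the fit above. Its counts were 0, 5, 4 and 10 at pH 7.4, 1, 28, 3 and 6 at pH 6.9, and 4, 3, 10 and 4 at pH 6.4. The 28 counts in pH 6.9 repeat 2 stood above the other 11 libraries. Fitted without a filter, the adjusted p was 1, 0.8506 and 0.7649 for pH 6.4 against pH 7.4, pH 6.9 against pH 7.4 and pH 6.4 against pH 6.9. The pseudogene SLC16A6P1 had no count, and ARSG on the opposite strand overlaps 144 exon bases of SLC16A6.

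Of the chaperones, BSG had 612, 589, 684 and 653 CPM in pH 7.4 repeats 1 to 4. It had 558, 568, 681 and 650 CPM at pH 6.9, and 577, 608, 678 and 716 CPM at pH 6.4. The means of 634.3 ± 42.1, 614.2 ± 60.7 and 645.1 ± 63.5 CPM (SD, n = 4) differed by less than the spread between repeats. At pH 6.4 against pH 7.4 the log2 fold change was 0.02 (adjusted p = 0.8763 by edgeR), and its 95% interval ran from 0.886-fold to 1.17-fold. The intervals were 0.844-fold to 1.11-fold for pH 6.9 against pH 7.4 and 0.915-fold to 1.21-fold for pH 6.4 against pH 6.9. BSG was the member with the narrowest interval in all 3 comparisons. An antisense gene, AC009005.1, overlaps 140 of its exon bases.

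EMB, on the minus strand of chromosome 5 (chr5:50396192-50443248), had 5.92, 5.79, 7.40 and 8.72 CPM in pH 7.4 repeats 1 to 4. The values were 5.08, 5.24, 7.57 and 9.50 CPM at pH 6.9, and 4.56, 4.32, 7.68 and 4.90 CPM at pH 6.4. All pH 6.4 libraries but repeat 3 lay below every pH 7.4 library. The log2 fold change at pH 6.4 was -0.37 against pH 7.4 (95% interval -0.89 to 0.15, adjusted p = 0.2688 by edgeR) and -0.35 against pH 6.9 (-0.87 to 0.17, adjusted p = 0.36). Without pH 6.4 repeat 3 it was -0.60 against pH 7.4 (adjusted p = 0.06071) and -0.57 against pH 6.9 (adjusted p = 0.08408). Without pH 7.4 repeat 4 it was -0.24 against pH 7.4 (adjusted p = 0.5361), and without pH 6.9 repeat 4 it was -0.15 against pH 6.9 (adjusted p = 0.7484). With the block it was -0.38 (adjusted p = 0.08231) and -0.33 (adjusted p = 0.1485). The pseudogene EMBP1, a near copy, had 27 to 69 counts, so a part of the EMB reads may have been assigned to it or left out.

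**Figure D3:**
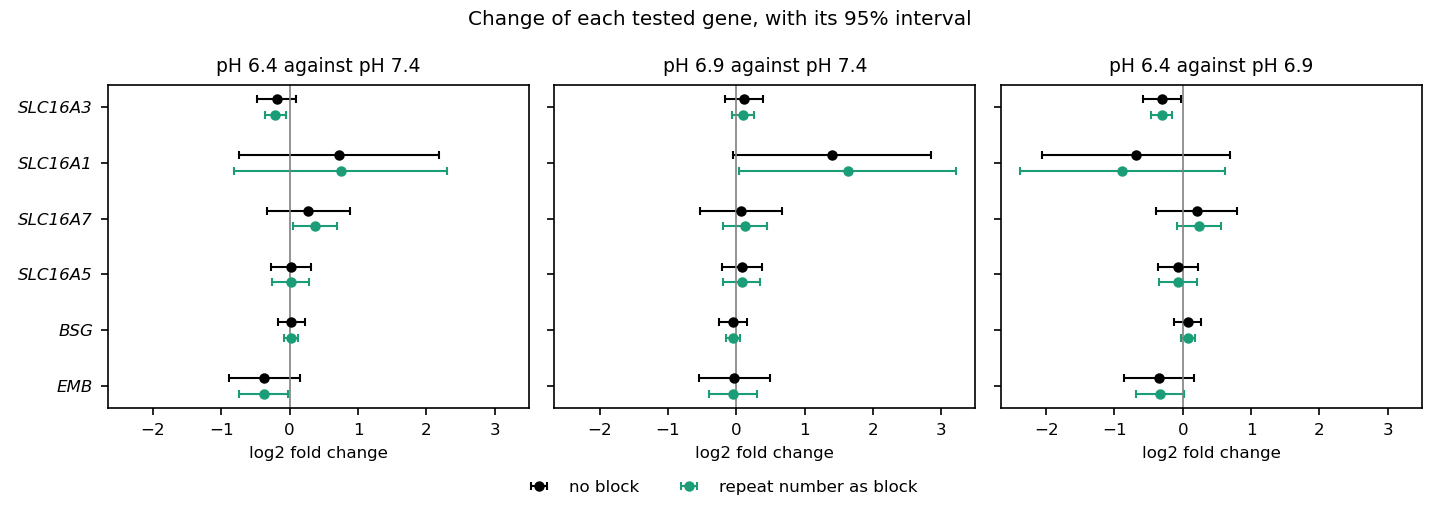
Log2 fold change of the 6 tested genes in the 3 comparisons, with 95% intervals, from the fit without a block (black) and from the fit with a block for repeat number (green). Both fits give the same direction for each gene; SLC16A3 at pH 6.4 is the member whose blocked interval excludes 0 with an adjusted p under 0.05.

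The intervals show how large a change these libraries could have hidden. For pH 6.4 against pH 7.4, the 95% interval lay within 1.5-fold in either direction for 3 of the 6 tested genes and within 2-fold for 5. These counts were 4 and 5 for pH 6.9 against pH 7.4, and 3 and 5 for pH 6.4 against pH 6.9. SLC16A1 was the exception at 2-fold each time, with an upper bound of 7.19-fold for pH 6.9 against pH 7.4. The median log2 fold change of the 6 genes was 0.020, 0.077 and -0.18 in the 3 comparisons, against -0.00083, 0.0093 and -0.014 for all tested genes. Their median size of change regardless of sign was 0.23, 0.077 and 0.25 on the log2 scale, against 0.34, 0.16 and 0.27 for all tested genes.

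Within a library, counts of SLC16A3 and BSG can be set against each other with no scaling between libraries. This ratio was chosen after the values had been seen and is given as a description. SLC16A3 counts were 66.1% ± 3.00 of BSG counts at pH 7.4 (62.6 to 69.9%), 73.6% ± 3.16 at pH 6.9 (71.1 to 78.0%) and 56.8% ± 8.35 at pH 6.4 (46.7 to 67.0%; SD, n = 4 each). All pH 6.9 libraries lay above all pH 7.4 and all pH 6.4 libraries, while pH 7.4 and pH 6.4 overlapped through pH 6.4 repeat 3. How many other gene pairs separate like this is not given here. At pH 6.9 against pH 7.4, SLC16A3 itself was higher in 3 of 4 repeats and BSG lower in 4 of 4, and neither gene was called. EMB counts were 1.09% ± 0.170, 1.10% ± 0.258 and 0.83% ± 0.207 of BSG counts in the same order, with overlapping libraries. SLC16A7 counts were 4.19% ± 1.72, 4.12% ± 0.894 and 5.92% ± 0.546 of SLC16A3 counts.

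**Figure D4:**
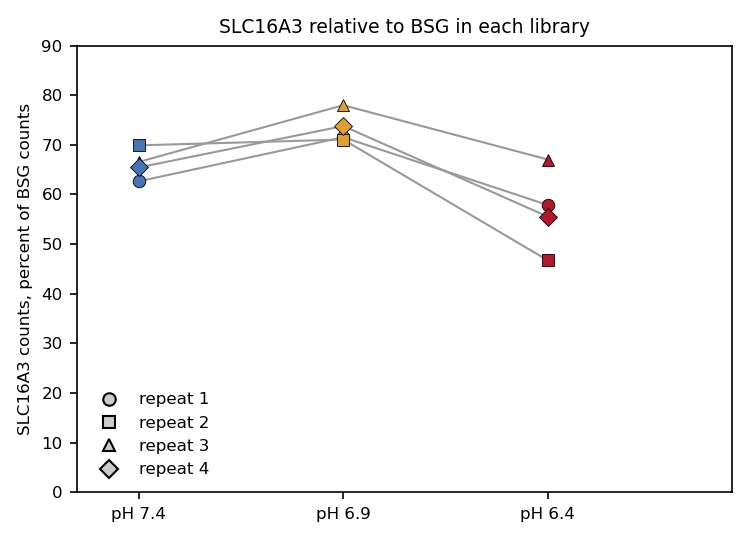
SLC16A3 counts as a percentage of BSG counts in each library, with lines joining libraries of the same repeat number. In each repeat the value at pH 6.9 (71.1 to 78.0%) is above that at pH 7.4 (62.6 to 69.9%), and 3 of the 4 repeats are below both at pH 6.4.

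The repeats differed among themselves as much as the media for some members. BSG lay at 558 to 612 CPM in the 6 libraries of repeats 1 and 2 and at 650 to 716 CPM in the 6 of repeats 3 and 4. SLC16A7 lay at 9.44 to 19.4 CPM and at 20.1 to 26.2 CPM. These 2 members did not overlap between the pairs of repeats, a pattern shared by 4.54% of all tested genes in this direction. SLC16A3 overlapped slightly, with 284 to 412 CPM against 398 to 531 CPM. What distinguishes the repeats is not given in the labels, and its part in the results was not tested.

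Genes around the transporters were read from 5 lists, beside 15.6% of all tested genes called higher and 14.7% called lower at pH 6.4 against pH 7.4. Of the 9 other SLC16 genes, 6 were tested, 0 rose and 1 fell. That gene was SLC16A13, a family member with little known function, which went from 7.51 ± 0.237 to 4.89 ± 1.11 CPM (log2 fold change -0.62, adjusted p = 0.0117 by edgeR). The median over the 6 was 0.095. SLC16A4 and SLC16A12, with log2 fold changes of 0.26 (adjusted p = 0.6566) and 0.38 (adjusted p = 0.3859), were not called.

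Among the 18 genes of lactate and pyruvate conversion, 17 were tested, 2 rose and 4 fell at pH 6.4 against pH 7.4, with a median log2 fold change of -0.12. LDHA, the lactate dehydrogenase subunit that favours lactate formation, fell from 3105 ± 220 to 1963 ± 361 CPM (-0.66, adjusted p = 0.001106 by edgeR). PC, pyruvate carboxylase, fell from 157 ± 9.83 to 92.2 ± 20.8 CPM (-0.77, adjusted p = 0.0004902). PDHB, a pyruvate dehydrogenase subunit, fell by 0.49 on the log2 scale (adjusted p = 0.003875), and PDK2, a kinase that inhibits that enzyme, fell by 0.74 (adjusted p = 0.004494). The rises, named after their values were seen, were GPT2, the mitochondrial alanine transaminase (0.50, adjusted p = 0.008005), and PDP1, a phosphatase that activates pyruvate dehydrogenase (0.72, adjusted p = 0.0185). LDHB, the other lactate dehydrogenase subunit, had a log2 fold change of 0.0066 (adjusted p = 0.9927). Exons on the opposite strand overlap PC, PDHB and PDK2 by 621, 360 and 2113 bases. LDHB shares 997 exon bases with AC010197.2 on the same strand, so its count is uncertain.

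HCAR1, the cell-surface receptor for lactate, was the 1 tested gene of 3 in the list of other lactate carriers and the receptor. It fell from 13.8 ± 1.93 to 5.30 ± 2.69 CPM (log2 fold change -1.37, adjusted p = 0.002341 by edgeR). SLC5A8, a sodium-coupled lactate carrier, had no count at pH 7.4 or pH 6.4.

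Of 10 known partners of basigin or of the transporters, 9 were tested, 1 rose and 2 fell at pH 6.4 against pH 7.4. The median was -0.047. With the block, which called 41.6% of all tested genes in either direction, 2 rose, and the number that fell is not given here. CD44, the hyaluronan receptor, rose from 671 ± 21.0 to 1227 ± 220 CPM (0.87, adjusted p = 0.000174 by edgeR). NPTN, neuroplastin, a relative of basigin that also serves as a transporter chaperone, fell by 0.31 on the log2 scale (adjusted p = 0.02043). PPIA, the cyclophilin that binds basigin, fell by 0.32 (adjusted p = 0.04537) and stayed called in only 12 of 22 other settings. The surface carbonic anhydrases CA9 and CA12 had log2 fold changes of 0.46 (adjusted p = 0.1934) and 0.50 (adjusted p = 0.06305).

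All 6 regulators were tested, and 2 rose and 2 fell, with a median of 0.026. PPARGC1A, a coactivator of mitochondrial genes, fell from 12.6 ± 1.53 to 1.89 ± 0.914 CPM (log2 fold change -2.72, adjusted p = 1.147e-05 by edgeR). MYC, a transcription factor that acts on E-boxes, rose from 126 ± 10.5 to 228 ± 46.5 CPM (0.85, adjusted p = 0.0003012). PRKAA2, a catalytic subunit of the AMP-activated kinase, rose by 0.46 (adjusted p = 0.02676), and EPAS1, a hypoxia-inducible factor, fell by 0.53 (adjusted p = 0.0408). The last 2 calls were kept in 16 and 15 of 22 other settings. HIF1A, the best known factor of the hypoxia response element, had a log2 fold change of 0.23 (adjusted p = 0.07763).

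**Figure D5:**
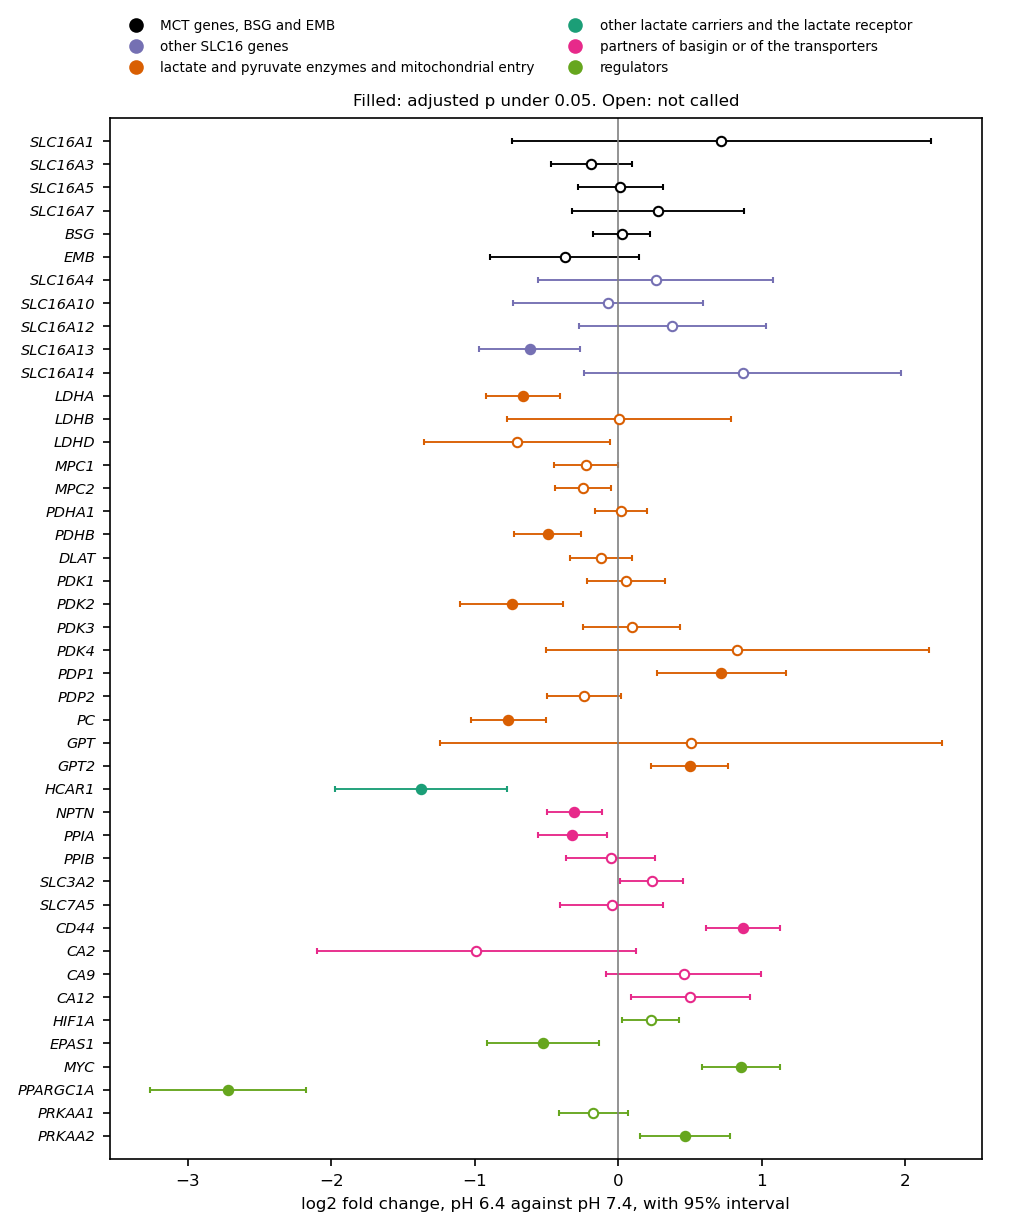
Log2 fold change at pH 6.4 against pH 7.4, with 95% intervals, of the 6 tested transporters and chaperones (black) and tested genes of the 5 lists (colours), with 1 tested gene of the lists not drawn; filled points have an adjusted p under 0.05. All 6 black points are open in this fit without a block, and PPARGC1A (-2.72) and HCAR1 (-1.37) lie farthest to the left.

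At pH 6.9 against pH 7.4, where 0.724% of all tested genes were called, no gene of the 5 lists was called without the block. CA9 and CA12 had log2 fold changes of 0.94 (adjusted p = 0.1139 by edgeR) and 0.73 (adjusted p = 0.1096), and PPARGC1A one of -1.06 (adjusted p = 0.05663). With the block, which called 5.4% of all tested genes there, PDHB (adjusted p = 0.01044 by edgeR), PPARGC1A (0.01225) and EPAS1 (0.01818) fell. GPT2 (0.01686) and PRKAA2 (0.04735) rose with the block. Repeat numbers were not taken as pairs there, and block calls of other list genes are not given here. At pH 6.4 against pH 6.9, where 17% of all tested genes were called, 0 of 6 other SLC16 genes were called. LDHA (-0.58), PDK2 (-0.72) and PC (-0.51) were the 3 that fell among the 17 of lactate and pyruvate conversion, and HCAR1 fell by 1.04 on the log2 scale. CD44 (0.65), MYC (0.60) and, named after its values were seen, HIF1A (0.44, adjusted p = 0.008108) rose, and PPARGC1A (-1.67) fell. With the block in this comparison, 1 other SLC16 gene fell, and 7 of the 17 lactate and pyruvate genes fell and 1 rose. Of the 9 partners 3 fell with the block, while CD44 rose (adjusted p = 0.0005827 by edgeR). The block called 31.1% of all tested genes in either direction, and the share that fell is not given here.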

How the data were processed

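Raw counts of reads per gene for 12 libraries were deposited by the authors in 1 table. Libraries were stranded and poly(A)-selected and were sequenced on a NextSeq 500, per the labels' protocols. The aligner STAR, the counter featureCounts and the build GRCh38.p13 (hg38) are given per the submitters' processing notes. Tool versions, the counter's strand option and the handling of multiply mapped reads: not given in the sources used here, so overlapping genes and near copies are uncertain. Columns were matched to samples by title, and groups come from the treatment label.

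Software was DESeq2 1.42.0, limma 3.58.1 and edgeR 4.0.16, run in R 4.3.3. After filterByExpr (17544 genes) and TMM scaling (factors 0.916 to 1.03), edgeR's robust quasi-likelihood test was fitted to all 12 libraries with 1 term per medium (9 residual degrees of freedom), and p-values were adjusted by Benjamini and Hochberg over all tested genes, with a threshold of 0.05. Intervals are 95%. The common biological coefficient of variation was 0.198. The test was tried on simulated data. In all 66 pairs of libraries at least 22391 genes differed, so none was a copy. Genes without a symbol held at most 0.424% of counts.

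The members and lists were chosen with earlier results of these data known. Beside the 7 members, the rule named, per list and for pH 6.4 against pH 7.4, up to 4 called genes with the smallest adjusted p. Values of 1 gene of the lists are not reported here. A rule for genes with a like pattern named none, since it applied only to called members. Exon lengths and positions are from GENCODE 29 (17337 of 17544 tested genes matched) and promoters from RefSeq (GRCh38.p14). Deviations from the group means of same-numbered libraries correlated at 0.113 to 0.262 for pH 6.4 against pH 7.4 and 0.264 to 0.470 for pH 6.4 against pH 6.9. The repeat numbers were therefore taken as pairs there, but only in the blocked fit. The main fit held no term for the repeat number, so its calls ignore that pairing. For pH 6.9 against pH 7.4 they correlated at 0.0798 (repeat 1) to 0.352, and the numbers were not taken as pairs. In both comparisons with pH 7.4, repeat 1 correlated better with another number, at 0.214 for pH 6.4 and 0.247 for pH 6.9. The other repeats correlated best with their own number. These correlations therefore do not clearly separate the comparisons with pH 7.4, and the blocked fit was run for all comparisons. The pairing comes from these correlations and not from the labels. Alternatives were DESeq2, library size scaling, other filters, the block, fewer libraries and leaving out each library.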

Additional observations from a re-analysis of the deposited data

How the results depend on the processing

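The count of members called, 0 in each comparison, was 1 for pH 6.4 against pH 7.4 and 1 for pH 6.4 against pH 6.9 with the replicate block, and 2 and 1 in repeats 1 and 2 only. For pH 6.9 against pH 7.4 it was 0 with the block and in all other settings. Leaving out 1 library gave 0 to 0, 0 to 0 and 0 to 1 called members in the order of the report, the 1 being SLC16A3 without pH 6.4 replicate 3. DESeq2, library size scaling, no filter, a stricter filter and leaving out both libraries with the fewest detected genes gave 0 in each comparison. The cause of these differences was not tested. Over 22 settings the log2 fold change of SLC16A3 ranged from -0.36 to -0.039 at pH 6.4 against pH 7.4 and from -0.42 to -0.20 against pH 6.9, and that of BSG from -0.057 to 0.079 against pH 7.4. Without pH 6.4 repeat 3, pH 6.4 against pH 6.9 had 4944 called genes among all tested, in place of 2988. Without pH 6.4 repeat 2 or repeat 4 it had 1171 and 1231, without pH 6.9 repeat 1, 3 or 4 it had 1570, 1628 and 1880, and with the block 5456. The 127 calls of pH 6.9 against pH 7.4 became 947 with the block, where the numbers were not taken as pairs, 559 with DESeq2, 250 with the libraries of both media only, 201 with no filter and 0 to 7 in either pair of repeats. That comparison had 39 to 306 calls when 1 library was left out and 20 without both libraries with the fewest detected genes. In repeats 3 and 4 only, pH 6.4 had 1528 calls against pH 7.4 and 0 against pH 6.9. Among the genes named from the lists at pH 6.4 against pH 7.4, PDP1, NPTN and SLC16A13 were called in 17, 18 and 20 of 22 settings. LDHA, PC, PDK2 and HCAR1 lost the call only in repeats 3 and 4 only, and GPT2 only in repeats 1 and 2 only. With library size scaling, 7 in place of 4 lactate and pyruvate genes fell at pH 6.4 against pH 7.4. That setting called 30.2% of all tested genes in either direction, and the share that fell is not given here. PPARGC1A at pH 6.9 against pH 7.4 was called in 7 of 22 settings and GPT2 in 5. Depth limits SLC16A1 and SLC16A6, for which 1 count is a large part of the value. No value lay apart from its group by the gap test applied to 21 groups of 4 libraries.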
